A study of Mus musculus with 4 samples.

Results

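The 34 genes described here encode enzymes of fatty acid oxidation and ketone body synthesis, and targets and regulators of PPAR alpha. They were taken by symbol from a table of 52630 mouse gene identifiers, and all 34 were found there. They comprise 17 mitochondrial genes, 7 peroxisomal genes, 1 ketone body gene (Bdh1) and 9 PPAR alpha targets and regulators. AML12, a non-tumour mouse hepatocyte line that carries a human TGF-alpha transgene, was infected with lentivirus that carried a short hairpin RNA, either the control (shCtrl) or one directed at Topors (shTopors), the gene of a nuclear ubiquitin and SUMO ligase. Both groups received 200 µl of concentrated virus, a change of medium after 24 hours and collection on day 5, in medium with 10% serum, an insulin-containing supplement and 0.1 µM dexamethasone. Each group had 2 strand-specific libraries of total RNA depleted of ribosomal RNA. Nothing in the labels says that the 2 libraries of a group are separate cultures, so p-values here measure no more than library-to-library spread, possibly technical. The labels give 1 hairpin name per group.

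In the liver, long-chain fatty acids enter mitochondria as carnitine esters and are shortened there in repeated cycles of dehydrogenation, hydration, dehydrogenation and thiolysis. Peroxisomes shorten very-long-chain and branched substrates by a parallel set of enzymes. During fasting the acetyl-CoA formed is turned into ketone bodies for export. PPAR alpha, a nuclear receptor that binds fatty acids and pairs with RXR, drives many genes of both routes, and glucocorticoids such as dexamethasone also raise some of its targets, Pdk4 and Angptl4 among them.

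Levels are in TPM, a unit scaled for transcript length and library total, so levels of different genes can be set side by side. TPM keeps no depth, so the number of reads behind a value is unknown. Between 12928 and 13847 genes reached 1 TPM per library, small RNAs took 18.4% to 24.7% of TPM, and mitochondrially encoded genes took 1.56% and 1.25% in shCtrl and 0.721% and 0.815% in shTopors. Topors itself stood at 21.9 and 29.2 TPM in shCtrl against 4.31 and 4.65 TPM in shTopors, so both knockdown libraries went with their labels. Of 10 hepatocyte markers, 8 had a mean of at least 1 TPM, while Cps1 and Tat, markers of mature hepatocytes, were under 1 TPM in every library. The 10 markers summed to 1840 and 3151 TPM in shCtrl and 947 and 1126 TPM in shTopors, but Ttr, a secreted thyroid hormone carrier, made up most of that gap at 1119 and 2168 TPM against 195 and 410.3 TPM. Without Ttr the sums were 721 and 983 TPM against 752 and 716 TPM. Both knockdown libraries lay below both controls for Ttr and Apob, and the other 8 markers overlapped, with Alb at 4.15 TPM in shTopors 1 and 402 TPM in shTopors 2. The part of these markers in the results below was not tested. In such bulk RNA, fewer cells of a kind and less RNA per cell cannot be told apart. Of 6 bile duct markers, 5 had a mean of at least 1 TPM, with Epcam near 0. Their sums were 953 and 1414 TPM in shCtrl and 1891 and 1091 TPM in shTopors. Krt19 made up most of the sum in shTopors 1, at 341 and 296 TPM in shCtrl against 1396 and 345 TPM in shTopors. Sox9 lay the other way without overlap, at 76.8 and 91.2 TPM against 26.9 and 42.1 TPM. Krt7, Spp1 and Cftr overlapped between groups. Markers of fibroblasts (8 genes), endothelium (6), leukocytes (6) and adipocytes (6) all had means under 1 TPM, and among them Col1a2, Col3a1, Lum, Cdh5, Adgre1, Cd79a, Adipoq, Lep, Plin1 and Cfd were at 0 throughout. Of 6 muscle markers only Tnnt2 had a mean of at least 1 TPM, and their sum was 21.5 and 11.05 TPM in shCtrl and 67.3 and 23.2 TPM in shTopors.

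**Figure D1:**
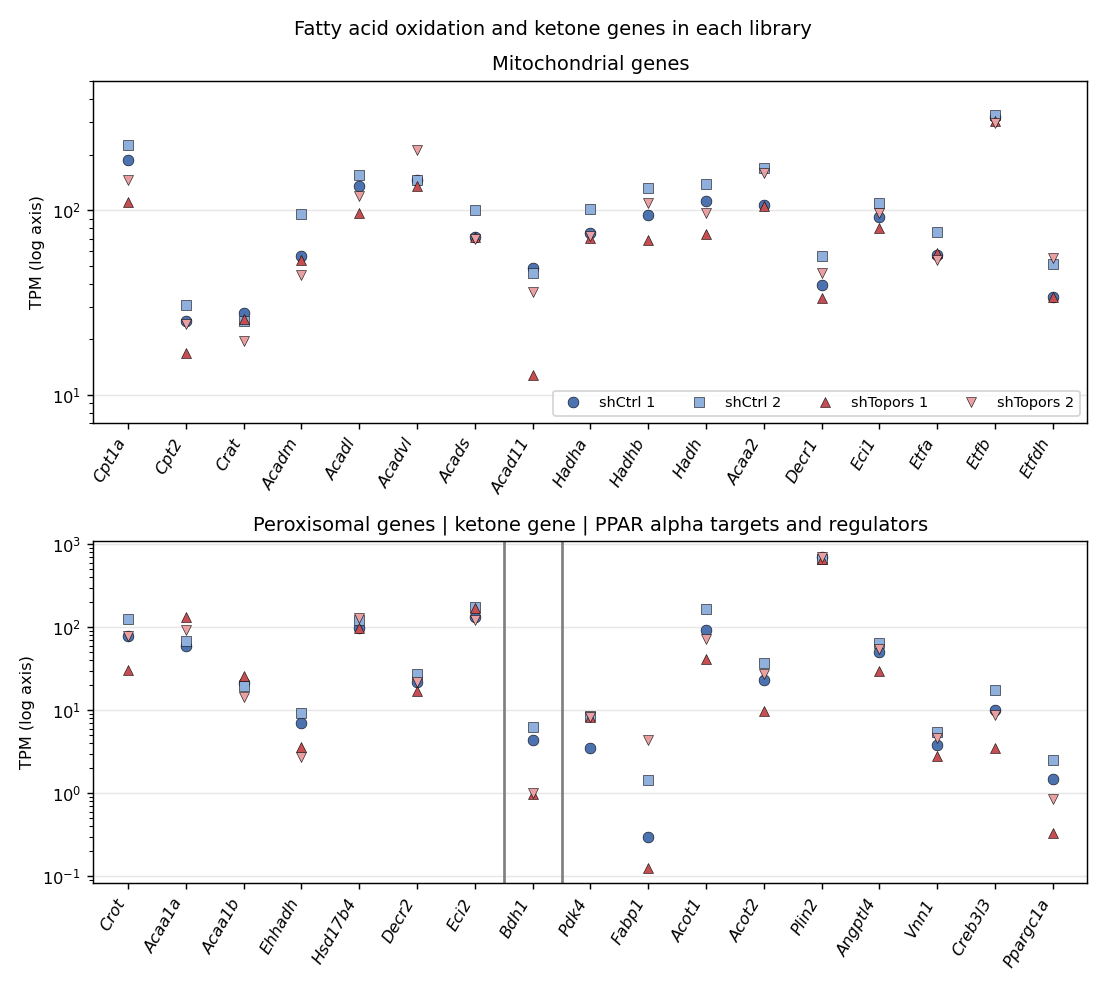
Level of each of the 34 genes in each library (TPM, log axis), with 1 point per library and shCtrl in blue, shTopors in red. Bdh1 and Ehhadh lie lower in both knockdown libraries, Acaa1a lies higher, and Plin2 is at 660 to 710 TPM in all 4.

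No gene of the 34 had an adjusted p under 0.05 when shTopors was compared with shCtrl by limma. Topors itself did not pass in that fit either (adjusted p = 0.0823 in limma's test). That fit covered the 13509 genes whose mean reached 1 TPM, and 0.037% of them passed. At an unadjusted p under 0.05, 7 were lower in the knockdown (20.6%, against 10.7% of all tested genes) and 1 was higher (2.94%, against 3.98%). The 7 were Bdh1, Ehhadh, Acot1, Cpt1a, Ppargc1a, Creb3l3 and Acad11, and the 1 was Acaa1a. In 15 of the 34 (44.1%) both knockdown libraries lay below both controls, against 35.2% of all tested genes, and in 1 (2.94%) both lay above, against 14.6%. The median log2 difference of the 34 was -0.28, beside -0.18 over all tested genes. The difference was negative for 27 of the 34 as deposited (79.4%, against 65.9% of all tested genes). It was negative for 23 after median-of-ratios scaling and for 26 after quantile normalization. Log2 differences here are of TPM + 1, so for genes at low levels they come out smaller than the ratio of TPM. The mean over the 4 libraries was 1 TPM or more for all 34, but Fabp1 reached it only through 1 knockdown library, and Ppargc1a and Bdh1 only through the controls.

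**Figure D2:**
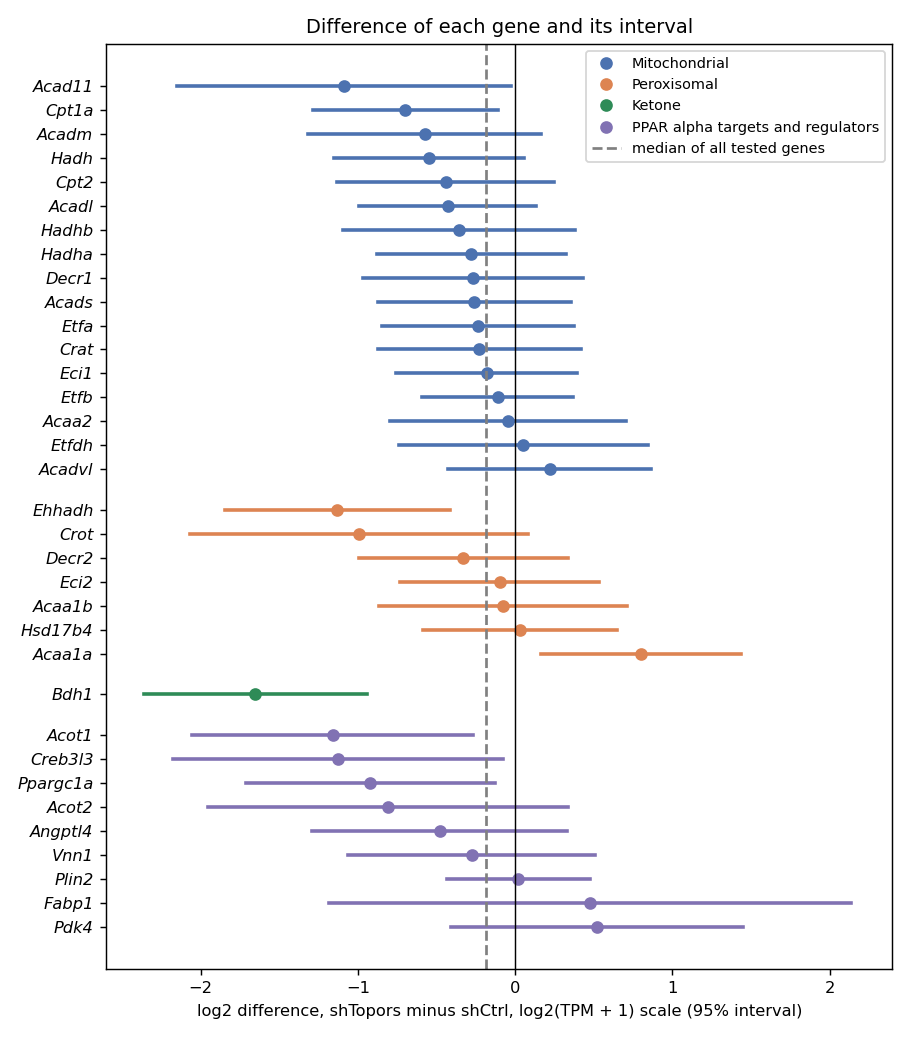
Difference in level of each gene (shTopors minus shCtrl, log2(TPM + 1) scale) with its 95% interval from limma, by group, 2 libraries per group. The dashed line is the median of all tested genes at -0.18. The intervals of 8 of the 34 genes leave out 0: Acaa1a above it, and Bdh1, Ehhadh, Acot1, Creb3l3, Acad11, Ppargc1a and Cpt1a below it. Such an interval corresponds to an unadjusted p under 0.05 in limma's test, which 14.7% of all tested genes had. Bdh1 and Ppargc1a reached the filter of 1 TPM only through the controls.

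None of the 17 mitochondrial genes passed the threshold. At the carnitine entry step, Cpt1a and Cpt2 were lower without overlap, and Crat overlapped between groups. Cpt1a (chr19:3322334-3385733, plus strand, mm10), the carnitine palmitoyltransferase of the outer membrane and the rate-controlling entry enzyme, stood at 187 and 226 TPM in shCtrl against 110.3 and 145 TPM in shTopors. The groups did not overlap, and the shTopors mean was 1.62-fold lower (207 ± 27.7 against 128 ± 24.4 TPM, SD, n = 2). Its log2 difference was -0.70 (SE 0.249), with an adjusted p = 0.284. Cpt2, which releases the acyl group inside the mitochondrion, was at 25.1 and 30.5 TPM in shCtrl and 16.8 and 24.1 TPM in shTopors, again without overlap. Its log2 difference was -0.44 (adjusted p = 0.500), and -0.19 without shTopors 1. Crat, the carnitine acetyltransferase, overlapped between groups at 27.8, 25.2, 25.7 and 19.6 TPM (shCtrl 1, shCtrl 2, shTopors 1 and shTopors 2).

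Of the acyl-CoA dehydrogenases, which take the first oxidation step at different chain lengths, all but Acadvl were lower without overlap. The genes were not tested against each other. Acadm (medium chain) was at 56.3 and 95.4 TPM in shCtrl and 53.4 and 44.7 TPM in shTopors. Acadl (long chain) was at 135 and 154 TPM against 96.3 and 119 TPM. Acads (short chain) was at 71.7 and 99.6 TPM against 71.4 and 69.4 TPM. In these 3 genes both knockdown libraries lay below both controls, for Acads by less than 1 TPM at the boundary. Acadvl, the very-long-chain enzyme of the inner membrane, was at 146 and 145 TPM in the controls, 135 TPM in shTopors 1 and 213 TPM in shTopors 2, so that the knockdown libraries lay on either side of the controls. Acad11, which is placed in both mitochondria and peroxisomes, was at 48.5 and 45.8 TPM in the controls, 12.8 TPM in shTopors 1 and 36.1 TPM in shTopors 2. Its difference of -1.09 on the log2 scale (SE 0.452, adjusted p = 0.332 in limma's test) was -0.37 without shTopors 1 and -1.80 without shTopors 2.

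The enzymes of the later steps had log2 differences between -0.55 (Hadh) and -0.04 (Acaa2). Hadha and Hadhb encode the subunits of the trifunctional protein, which carries out the later steps on long chains. Hadha was at 74.8 and 101 TPM in shCtrl and 70.9 and 72.4 TPM in shTopors, and Hadhb at 93.9 and 132 TPM against 68.8 and 109.7 TPM, with overlap for Hadhb only. Hadh, the dehydrogenase for shorter chains, was at 111 and 138 TPM in shCtrl and 74.4 and 96.0 TPM in shTopors, 1.46-fold lower without overlap. Acaa2, the mitochondrial thiolase, overlapped at 106 and 168 TPM against 106 and 159 TPM, with a 95% interval of the log2 difference from -0.80 to 0.71. Its sign turned under median-of-ratios scaling (0.12) and quantile normalization (0.01).

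Decr1 and Eci1, which handle double bonds of unsaturated acids, overlapped between groups. Decr1 was at 39.4 and 56.2 TPM in shCtrl and 33.4 and 45.4 TPM in shTopors, and Eci1 at 91.8 and 109.2 TPM against 80.3 and 96.9 TPM. The electron transfer flavoprotein passes electrons from the dehydrogenases to the respiratory chain. Its subunit gene Etfb, at 320.5 and 325.7 TPM against 303 and 296 TPM, had the highest mean level of the 17 mitochondrial genes, and the groups did not overlap. Its difference was small, at -0.11 on the log2 scale with an interval from -0.59 to 0.37, and its sign turned after median-of-ratios scaling (0.05). Etfa was at 57.3 and 76.3 TPM against 58.6 and 53.4 TPM. Etfdh, the oxidoreductase that receives these electrons, was at 33.9 and 50.9 TPM against 33.8 and 55.0 TPM, so each group held 1 library near 34 TPM and 1 above 50 TPM.

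Of the 17 mitochondrial genes, 9 were lower without overlap (52.9%, against 35.2% of all tested genes) and none was higher. At an unadjusted p under 0.05 in limma's test, 2 were lower (11.8%, against 10.7%) and none was higher (against 3.98%). Both knockdown libraries lay below the control mean in 14 of the 17 (82.4%, against 48.3% of all tested genes). Their median log2 difference was -0.27, at a distance of -0.08 from the median of all tested genes. That distance was -0.0035 without shCtrl 2 and -0.23 without shCtrl 1.

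Peroxisomal genes lay in both directions, and none passed the threshold. Ehhadh (chr16:21761287-21787807, minus strand), the bifunctional enzyme of the PPAR alpha-induced peroxisomal route, stood at 7.01 and 9.28 TPM in shCtrl against 3.61 and 2.73 TPM in shTopors. Both knockdown libraries were below both controls, and the mean was 2.57-fold lower (8.14 ± 1.61 against 3.17 ± 0.624 TPM, SD, n = 2). The log2 difference was -1.13 (SE 0.303), with an adjusted p = 0.218. Crot, which makes medium-chain carnitine esters for export from the peroxisome, was at 78.4 and 125 TPM in the controls, 30.7 TPM in shTopors 1 and 78.8 TPM in shTopors 2. The second of these knockdown values lay just above the lower control, so the groups overlapped. Its log2 difference was -0.99 with all libraries, -0.32 without shTopors 1 and -1.66 without shTopors 2.

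Acaa1a, a peroxisomal thiolase gene, was the only 1 of the 34 with both knockdown libraries above both controls. It stood at 59.7 and 68.4 TPM in shCtrl against 134 and 93.5 TPM in shTopors, a mean 1.78-fold higher (64.0 ± 6.13 against 114 ± 28.9 TPM, SD, n = 2). The log2 difference was 0.80 (SE 0.27), with an adjusted p = 0.262. Its close copy Acaa1b was at 21.5 and 19.8 TPM in the controls, 26.2 TPM in shTopors 1 and 14.5 TPM in shTopors 2. The longest coding transcripts of the pair in GENCODE M21 were 96.0% identical over 1450 aligned bases, and 34.0% of 50-base windows of Acaa1a occurred unchanged in Acaa1b. How the counting split such reads is not stated, so the values of both are uncertain. Acaa1a (chr9:119339676-119350299, plus strand, mm10) also overlaps Myd88 on the opposite strand, at 15.0 to 18.3 TPM, and whether the counting used strand is not stated.

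The other peroxisomal genes had log2 differences between -0.33 and 0.03. Hsd17b4, the D-bifunctional protein for branched substrates, was at 99.4 and 124 TPM in shCtrl and 97.8 and 131 TPM in shTopors. Decr2, the peroxisomal dienoyl-CoA reductase, was at 21.7 and 27.6 TPM against 17.1 and 21.7 TPM, and lay lower without overlap by a margin of under 0.1 TPM. Eci2, an enoyl-CoA isomerase, was at 135 and 178 TPM against 170.0 and 123 TPM. The 7 genes had a median log2 difference of -0.10, at a distance of 0.09 from the median of all tested genes. That distance was -0.17 without shTopors 1 and -0.04 without shCtrl 1 or without shCtrl 2, so no direction can be given for these 7 genes as a group.

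**Figure D3:**
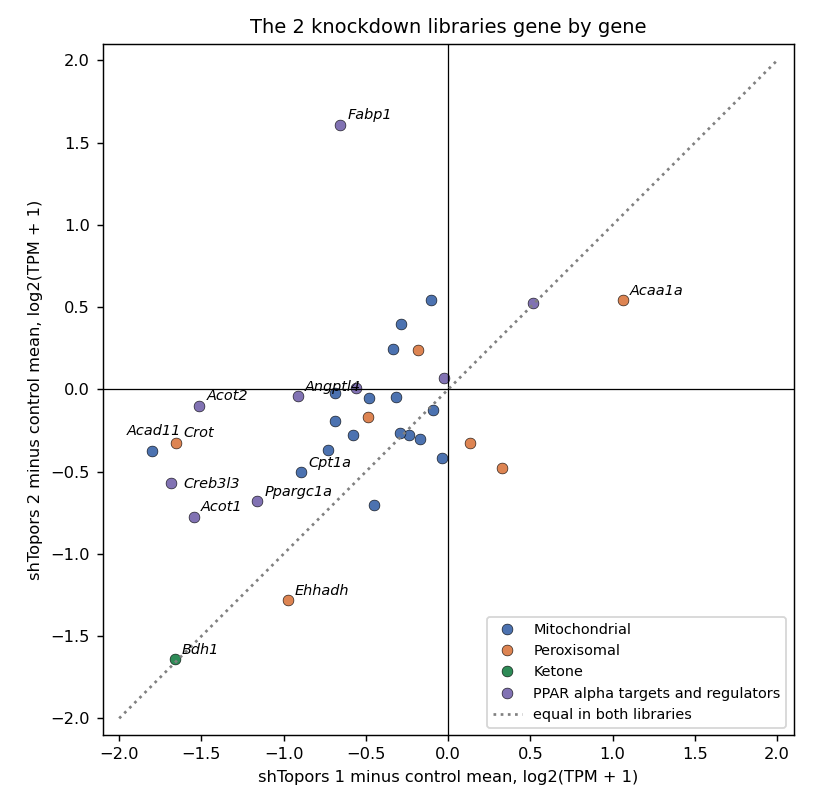
Each point is 1 gene, placed by its difference from the control mean in shTopors 1 (horizontal axis) and in shTopors 2 (vertical axis), both on the log2(TPM + 1) scale, with the dotted line where they are equal. Bdh1 and Ehhadh lie near the line at -1.66 and -1.64 and at -0.98 and -1.28, while Acad11, Crot, Acot2 and Creb3l3 lie far lower in shTopors 1 than in shTopors 2.

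Bdh1, the mitochondrial dehydrogenase that interconverts acetoacetate and beta-hydroxybutyrate, had the largest lower difference of the 34 on the log2(TPM + 1) scale. It stood at 4.40 and 6.23 TPM in shCtrl against 0.974 and 1.01 TPM in shTopors. The means were 5.32 ± 1.29 and 0.990 ± 0.0229 TPM (SD, n = 2), a 5.37-fold difference, and the knockdown libraries lay close together. The log2 difference was -1.65 (SE 0.301), with an adjusted p = 0.130. The adjusted p was 0.000765 without shTopors 1 and 0.000273 without shTopors 2, and from 0.101 to 0.872 under every other alternative that kept the gene. A filter at 5 TPM left it out. Bdh1 reached the filter of 1 TPM through the controls, where it is high, and the fits with 1 knockdown library assume that this library varies like the controls, so these p-values add no support to its difference. Its gene spans chr16:31422280-31458901 on the plus strand in mm10.

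Oxct1, which lets tissues use ketone bodies and is low in mature hepatocytes, was at 7.65 and 17.8 TPM in shCtrl against 44.4 and 21.3 TPM in shTopors, 2.58-fold higher without overlap (adjusted p = 0.290). Aacs, which activates acetoacetate for lipid synthesis, was at 14.6 and 14.7 TPM in the controls, 49.0 TPM in shTopors 1 and 15.9 TPM in shTopors 2, so it was higher without overlap but mainly in 1 library. Bdh2, a cytosolic dehydrogenase, was at 3.55 and 6.80 TPM against 0.641 and 4.81 TPM. The monocarboxylate transporter genes Slc16a1, at 40.7 and 66.4 TPM against 51.1 and 42.1 TPM, and Slc16a6, at 15.6 and 14.1 TPM against 12.1 and 22.9 TPM, overlapped between groups. Of the 8 other ketone genes listed, 7 were tested and none passed. Hmgcll1 was listed at 0 in every library.

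**Figure D4:**
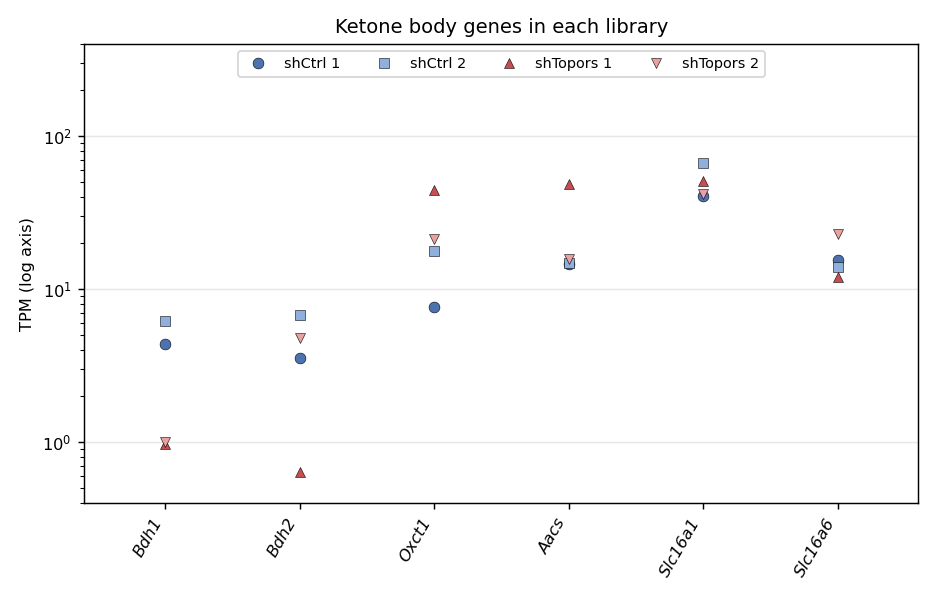
Level in each library (TPM, log axis) of Bdh1 and 5 other ketone genes, with 1 point per library. Bdh1 lies lower in both knockdown libraries, Oxct1 and Aacs lie higher, and Bdh2, Slc16a1 and Slc16a6 overlap.

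Among PPAR alpha targets, the thioesterase genes were lowest in shTopors 1. Acot1 (chr12:84009490-84018371, plus strand), a cytosolic acyl-CoA thioesterase strongly induced by PPAR alpha ligands, was at 92.7 and 168 TPM in shCtrl and 42.1 and 72.6 TPM in shTopors. The groups did not overlap, and the mean was 2.27-fold lower (130.4 ± 53.3 against 57.4 ± 21.6 TPM, SD, n = 2), with a log2 difference of -1.16 (SE 0.38) and an adjusted p = 0.252. Acot2 (chr12:83987861-83993873, plus strand), its mitochondrial neighbour, was at 23.3 and 37.6 TPM in the controls, 9.73 TPM in shTopors 1 and 27.6 TPM in shTopors 2, which lay between the controls. The longest coding transcripts of the pair were 93.8% identical over 1337 aligned bases, and 23.7% of 50-base windows of Acot1 occurred unchanged in Acot2, so their reads may be shared.

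Genes for lipid storage, transport and secreted products overlapped between groups. Plin2, which coats lipid droplets, had the highest mean level of the 34, at 697 and 659.7 TPM in shCtrl and 665 and 709.9 TPM in shTopors. Its log2 difference was 0.02 with an interval from -0.44 to 0.48, and its sign turned after quantile normalization (-0.08). Angptl4, a secreted inhibitor of lipoprotein lipase, was at 50.6 and 65.0 TPM in the controls, 30.0 TPM in shTopors 1 and 55.7 TPM in shTopors 2. Vnn1, a pantetheinase, was at 3.86 and 5.47 TPM against 2.80 and 4.64 TPM. Pdk4, the kinase that shuts pyruvate out of oxidation, was at 3.50 and 8.46 TPM in shCtrl and 8.33 and 8.40 TPM in shTopors, so only shCtrl 1 stood apart. Fabp1, the liver fatty acid binding protein, was low throughout, at 0.300 and 1.43 TPM in the controls, 0.127 TPM in shTopors 1 and 4.43 TPM in shTopors 2, and no direction can be given for it.

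The regulators Creb3l3 and Ppargc1a were lower in both knockdown libraries. Creb3l3 (chr10:81084324-81098874, minus strand), a membrane-bound transcription factor of the fasting response, stood at 10.2 and 17.6 TPM in shCtrl against 3.49 and 8.77 TPM in shTopors. Its mean was 2.27-fold lower, with a log2 difference of -1.13 (SE 0.445) and an adjusted p = 0.317. Ppargc1a, the coactivator of mitochondrial gene programmes, was at 1.50 and 2.56 TPM in shCtrl and 0.336 and 0.867 TPM in shTopors. Its mean was 3.38-fold lower at a low level (adjusted p = 0.291 in limma's test). Ppargc1a reached the filter of 1 TPM only through the controls, where it is high, so this p-value adds no support to its difference. Ppara, the receptor gene itself, was at 32.8 and 36.4 TPM in shCtrl and 32.1 and 35.6 TPM in shTopors. The log2 difference of Ppara was -0.03 with an interval from -0.62 to 0.56, and it was 0.13 under both other scalings. Of the 9 PPAR alpha targets and regulators, 3 were lower without overlap, Ppargc1a among them (33.3%, against 35.2% of all tested genes), and none was higher. Their median log2 difference was at a distance of -0.30 from that of all tested genes, but of 0.11 without shTopors 1 and -0.72 without shTopors 2.

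PPAR alpha and RXR bind direct repeats of the half-site AGGTCA set 1 base apart, so the promoters were searched for these letters. RefSeq windows (GRCm38.p6, the build also called mm10) of 250 bases before to 50 bases after a start site were matched by symbol for 28 of the 34 genes, with 30 windows. A direct repeat of AGGTCA with a 1-base gap and at most 2 mismatches, on either strand, was present in 4 of the 30 windows, and in 3.86% of all 32851 windows. The half-site itself (AGGTCA or TGACCT) was present in 6 of the 30, and in 16.3% of all windows. The 4 windows belong to Fabp1, Creb3l3, Plin2 and Etfa. The first 3 are shown because they are PPAR alpha targets or regulators and differ in their values, with Creb3l3 lower in the knockdown, Plin2 overlapping between groups and Fabp1 low and variable. Capitals mark the direct repeat, and each sequence is written 5′ to 3′ along the gene's strand.
Fabp1, chr6:71199629-71199928, plus strand: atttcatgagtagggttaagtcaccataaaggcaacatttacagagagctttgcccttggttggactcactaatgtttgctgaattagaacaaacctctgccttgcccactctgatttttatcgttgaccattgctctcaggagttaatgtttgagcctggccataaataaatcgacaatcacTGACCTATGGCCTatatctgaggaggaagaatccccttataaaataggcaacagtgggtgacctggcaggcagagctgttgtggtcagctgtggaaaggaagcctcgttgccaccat
Creb3l3, chr10:81092542-81092841, minus strand: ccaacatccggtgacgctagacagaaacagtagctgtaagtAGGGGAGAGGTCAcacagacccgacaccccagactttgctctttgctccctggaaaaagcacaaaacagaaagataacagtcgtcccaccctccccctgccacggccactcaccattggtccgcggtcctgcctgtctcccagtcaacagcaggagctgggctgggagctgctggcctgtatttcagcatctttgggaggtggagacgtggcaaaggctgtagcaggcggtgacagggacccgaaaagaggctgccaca
Plin2, chr4:86670010-86670309, minus strand: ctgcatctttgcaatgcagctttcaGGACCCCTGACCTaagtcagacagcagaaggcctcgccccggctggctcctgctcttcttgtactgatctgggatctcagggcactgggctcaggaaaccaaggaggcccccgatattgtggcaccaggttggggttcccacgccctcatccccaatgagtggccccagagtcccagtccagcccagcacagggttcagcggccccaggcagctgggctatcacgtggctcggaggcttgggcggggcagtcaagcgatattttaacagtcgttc

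The repeat in Fabp1 had 1 mismatch and lay at -67 to -55 from the start site, on the opposite strand. Those in Creb3l3 and Plin2 had 2 mismatches each, at -209 to -197 and at -225 to -213. The Creb3l3 window is that of an internal start listed by RefSeq, and the window at the gene's outer start held no match. Windows of Bdh1, Ehhadh, Acot1, Acot2 and Acaa1a held neither the repeat nor the half-site, which says only that these letters are not in these windows. The Cpt1a window held the half-site but not the repeat. A match is a description of letters and no measure of binding.

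The knockdown libraries differed from each other over the 34 genes. In 25 of the 34 (73.5%) shTopors 2 lay above shTopors 1, against 51.7% of all tested genes, and this included all 9 PPAR alpha targets and regulators. shTopors 1 was the lowest of the 4 libraries in 23 of the 34 (67.6%), against 38.8% of all tested genes. At least 2-fold below the control mean on the log2(TPM + 1) scale were 7 of the 34 in shTopors 1, against 9.07% of all tested genes, and 2 in shTopors 2, against 6.67%. Bdh1 alone was that far below in both on this scale (2.94% of the 34, against 2.53% of all tested genes). In TPM without the added 1, Ehhadh (0.444 and 0.335 of the control mean) and Ppargc1a (0.165 and 0.426) were also more than 2-fold lower in both. The controls differed as well, with shCtrl 2 above shCtrl 1 in 29 of the 34 (85.3%), against 71.2% of all tested genes.

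Leaving out a library changed what passed. Without shTopors 2, 11 of the 34 passed the same threshold, against 16.0% of all tested genes: Cpt1a, Acad11, Crot, Ehhadh, Bdh1, Acot1, Acot2, Angptl4, Creb3l3 and Ppargc1a as lower and Acaa1a as higher. Without shTopors 1, 3 passed, against 8.49% of all tested genes: Ehhadh and Bdh1 as lower and Fabp1 as higher. In both fits the lone knockdown library is assumed to vary like the controls. Fabp1 reached the filter of 1 TPM only through shTopors 2, and Bdh1 and Ppargc1a only through the controls. Because of the lone library, passing in either fit adds no support to a difference for any gene listed. For these 3 genes the filter is a further limit. None of the 34 passed without shCtrl 1 or without shCtrl 2, where 0.0296% and 0% of all tested genes passed. With all libraries and the replicate number as a block, 0 of the 34 passed, against 0.244% of all tested genes.

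Of 111 other genes of the pathway, 93 were tested, and the count with an adjusted p under 0.05 by limma was 0. At an unadjusted p under 0.05, 15 were lower (16.1%, against 10.7% of all tested genes) and 4 higher (4.30%, against 3.98%). Without overlap, 42 were lower (45.2%, against 35.2% of all tested genes) and 8 higher (8.60%, against 14.6%). The median log2 difference of the 93 was -0.36. Acot6, Cd36 and Cyp4a12a, counted as lower in both ways, reached the filter of 1 TPM only through the controls. Their place in these counts adds no support. Of 17 tested genes of mitochondrial oxidation, 8 were lower without overlap (47.1%, against 35.2% of all tested genes) and none higher (against 14.6%). At an unadjusted p under 0.05, 2 of the 17 were lower (11.8%, against 10.7%) and none was higher (against 3.98%). Slc22a5, the plasma membrane carnitine transporter, was at 31.3 and 38.5 TPM in shCtrl and 11.2 and 22.8 TPM in shTopors. Acadsb, a dehydrogenase of branched short chains, was at 21.4 and 23.7 TPM against 12.7 and 15.0 TPM. Their adjusted p in limma's test was 0.266 and 0.320.

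Of 19 other peroxisomal genes tested, 11 were lower without overlap (57.9%, against 35.2% of all tested genes) and 1 was higher (5.26%, against 14.6%). Acot6, 1 of the 11, was at 1.87 and 1.84 TPM in shCtrl and 0.994 and 0.480 TPM in shTopors. It reached the filter of 1 TPM only through the controls, so its place in that count adds no support. Acox2, the oxidase for bile acid intermediates and branched chains, was at 74.4 and 116 TPM in shCtrl and 27.3 and 24.5 TPM in shTopors, 3.68-fold lower with the knockdown libraries close together (adjusted p = 0.118 in limma's test). Cat, the catalase that removes peroxide made by these oxidases, was at 422 and 487 TPM against 142 and 254 TPM, 2.29-fold lower (adjusted p = 0.192). Of 16 peroxins, the genes of peroxisome assembly, 7 were lower (43.8%, against 35.2%) and 2 higher (12.5%, against 14.6%) without overlap. At an unadjusted p under 0.05 in limma's test, none of the 16 was lower (against 10.7%) and 1 was higher (6.25%, against 3.98%). Pex19, the chaperone for peroxisomal membrane proteins, was at 29.3 and 36.5 TPM in shCtrl and 75.8 and 57.1 TPM in shTopors, 2.02-fold higher (adjusted p = 0.224).

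Of 22 other PPAR alpha targets only 12 were tested. Without overlap, 5 of the 12 were lower (41.7%, against 35.2% of all tested genes) and 3 higher (25.0%, against 14.6%). At an unadjusted p under 0.05, 3 were lower (25.0%, against 10.7%) and 2 higher (16.7%, against 3.98%). Cd36, a fatty acid uptake receptor, was at 2.33 and 4.42 TPM in shCtrl and 0.0138 and 0.672 TPM in shTopors. Cyp4a12a, an omega-hydroxylase, was at 2.66 and 2.79 TPM in shCtrl, was listed at 0 in shTopors 1 and stood at 0.375 TPM in shTopors 2. Their adjusted p in limma's test was 0.172 and 0.131, but both genes reached the filter of 1 TPM only through the controls, where they are high. The other 3 genes with an unadjusted p under 0.05 are given after their values were seen. Hilpda, a lipid droplet protein that inhibits lipolysis, was at 71.9 and 119 TPM in shCtrl and 227 and 166 TPM in shTopors, 2.06-fold higher (adjusted p = 0.227). Aldh3a2, a fatty aldehyde dehydrogenase, was at 36.6 and 50.6 TPM against 58.4 and 94.2 TPM, 1.75-fold higher (adjusted p = 0.331). Slc27a1, a fatty acid transporter, was at 20.7 and 29.9 TPM against 16.4 and 10.9 TPM (adjusted p = 0.306). The classical targets Cyp4a10, Cyp4a14 and Cyp4a31 were listed at 0 in all libraries. Of 22 tested regulators, 10 were lower without overlap (45.5%, against 35.2% of all tested genes) and none was higher (against 14.6%). At an unadjusted p under 0.05, 3 of the 22 were lower (13.6%, against 10.7%) and none was higher (against 3.98%). Among them Ncoa1, a coactivator of nuclear receptors, was at 8.32 and 9.66 TPM in shCtrl and 5.01 and 4.40 TPM in shTopors (adjusted p = 0.272 in limma's test).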

How the data were processed

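The authors deposited TPM per gene for the 4 libraries. The submitters' processing notes name StringTie, HISAT2, DESeq2, HTSeq and the mm10 build, without versions or roles. Which program wrote the TPM, and with which strand setting, is not stated. The table has 52633 lines, and 3 identifiers that stood on 2 lines each were summed. Columns were matched to samples by title, and gene positions came from GENCODE M21 (mm10). The 13509 genes whose mean reached 1 TPM were fitted by limma 3.58.1 (R 4.3.3) on log2(TPM + 1), with a mean-variance trend and the contrast shTopors minus shCtrl. Benjamini-Hochberg adjustment covered all of them. The fit was tested on simulated data. The members and lists were chosen with earlier results of these data known. All 34 members are named, with Topors, Ppara and the 2 genes of smallest p per list of other genes, of which some results are not reported here. A few further genes were named after their values were seen: markers, Myd88, the ketone genes plotted, Hilpda, Aldh3a2, Slc27a1, Acot6 and genes listed at 0. Promoter letters and transcript identity (Biopython 1.88) were described without a test, and a planned protein comparison was made on transcripts instead. Alternatives were pseudocounts of 0.1 and 5, no filter and a filter at 5 TPM, 2 other scalings, no trend, a block for the replicate number and leaving out each library in turn. Other steps used Python 3.11.15, numpy 2.4.6, pandas 2.3.3 and matplotlib 3.10.9.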

Additional observations from a re-analysis of the deposited data

How the results depend on the processing

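With 2 libraries per group the fit has little power, and the unknown depth sets a further limit on low genes such as Fabp1 and Ppargc1a. A filter at 5 TPM left 30 of the 34 genes. The count of the 34 genes past an adjusted p of 0.05 was 0 under every alternative that kept all libraries and 0 to 11 with 1 library left out, and that of the other pathway genes was 0 to 20 with 1 library left out. Of all tested genes, 16.0% passed without shTopors 2 and 8.49% without shTopors 1, so passing in these fits was not particular to the pathway. Both fits assume that the lone knockdown library varies like the controls, so these counts add no support to a difference. Same-numbered libraries deviated together only weakly (correlation 0.199 across genes), and nothing in the labels says that the numbers pair them. With the replicate block 33 genes passed in place of 5, among them 1 of the other pathway genes and Topors (adjusted p = 0.0498), but none of the 34.

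The median distance from all tested genes was -0.214 for mitochondrial and -0.0455 for peroxisomal genes with no filter, and -0.151 and -0.0508 after quantile normalization, against -0.08 and 0.09. With 1 library left out it ranged from -0.292 to -0.0261 for the 34 genes, -0.234 to -0.0035 for mitochondrial, -0.169 to 0.013 for peroxisomal and -0.721 to 0.113 for PPAR alpha genes. The sign of the log2 difference turned under median-of-ratios scaling for Acaa1b (0.0804), Acaa2 (0.12), Eci2 (0.0647), Etfb (0.0545) and Ppara (0.13), and after quantile normalization for Acaa1b (0.0908), Acaa2 (0.0137), Plin2 (-0.0759) and Ppara (0.13). These scalings moved the median of all genes from -0.18 to -0.04 and -0.01.

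Signs also turned with 1 library left out, where the log2 difference ranged from -0.48 to 0.33 for Acaa1b, -0.37 to 0.28 for Acaa2, -0.10 to 0.54 for Acadvl, -0.33 to 0.13 for Eci2, -0.29 to 0.40 for Etfdh, -0.66 to 1.61 for Fabp1 and -0.18 to 0.24 for Hsd17b4. The ranges were -0.0139 to 1.06 for Pdk4, -0.0273 to 0.0663 for Plin2, -0.11 to 0.0409 for Ppara and -0.56 to 0.00817 for Vnn1. Among the genes named, 26 of the gene values computed under an alternative changed sign, 31 newly passed the threshold and 513 did neither. The cause was not tested.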
